A study of Mus musculus with 6 samples.

Results

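In Sol muscle of mice given running wheels, none of 10 genes of the FOXO and ubiquitin ligase axis of muscle wasting differed between WT and LSD1-mKO mice by an adjusted p, while mice of the same genotype lay up to 3.27 times apart. The 10 genes are named by symbol, by a rule that uses no level, among the 24411 genes counted. They are the FOXO transcription factors Foxo1, Foxo3 and Foxo4, the ubiquitin ligases Fbxo32, Trim63, Trim54, Trim55 and Fbxo30, and the growth arrest genes Cdkn1a and Gadd45a. All 10 were among the 12828 genes that passed edgeR's filter on low counts.

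The study asked how the histone demethylase LSD1, encoded by Kdm1a, sets the response of muscle to its environment. LSD1-mKO mice carried floxed Lsd1 alleles and a transgene in which the human ACTA1 promoter, active in differentiating and differentiated muscle cells, drives the tamoxifen-dependent recombinase CreERT2. LSD1 is therefore kept in the other cells of the muscle. WT mice had floxed Lsd1 without the transgene. All 6 C57BL/6 mice, 3 of each genotype, entered the wheel cage at 8 weeks of age and were housed singly. Tamoxifen, 75 mg/kg for 5 days, was given to both genotypes after 3 days of familiarization, and wheels stayed available for 38 days. The mice were taken off the wheel and fasted before the muscle was collected, so each value below is from fasted, exercised muscle. Poly(A) RNA was sequenced with 1 library a mouse, and mice without a wheel were not analysed here.

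FOXO factors are held in the cytoplasm when insulin or IGF1 signalling makes AKT phosphorylate them. When that signal weakens, as in fasting or disuse, they enter the nucleus and switch on genes of protein breakdown. Among the best known of these in muscle are Fbxo32, also called atrogin-1, and Trim63, also called MuRF1. A ubiquitin ligase attaches ubiquitin to a chosen protein, which marks it for the proteasome. Glucocorticoids switch on several of the same genes through the glucocorticoid receptor. FOXO activity is set largely by where the protein is and how it is modified, which RNA levels do not measure.

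Library totals ran from 8940206 to 13798059 estimated counts. Levels are given as counts per 1000000 (CPM) after TMM scaling of the libraries, and differences as log2 fold changes of LSD1-mKO over WT, with the standard error (SE) and p of edgeR's quasi-likelihood test. P-values measure the spread between these 6 mice. Kdm1a had 40.5, 38.2 and 33.6 CPM in WT replicates 1 to 3 and 14.6, 16.6 and 16.6 CPM in LSD1-mKO replicates 1 to 3, so that its groups were far apart. Its log2 fold change was -1.23 (SE 0.11, edgeR adjusted p = 0.0160), which went with the labels. With WT replicate 2 or any 1 LSD1-mKO mouse left out, the fold change stayed between -1.26 and -1.17 but the edgeR adjusted p was 0.111 to 0.209. The tissue carried its muscle markers, with 32177 to 40894 CPM of the actin gene Acta1 and 11233 to 15151 CPM of the slow myosin gene Myh7. Summed over 5 fibroblast markers, the level was 1070, 2368 and 3177 CPM in WT and 2058, 1168 and 1154 CPM in LSD1-mKO. Over 5 immune cell markers it was 80.3, 265 and 206 CPM in WT and 164, 85.0 and 119 CPM in LSD1-mKO. In both lists 5 of 5 genes were fitted lower in LSD1-mKO and 0 of 5 had an unadjusted edgeR p under 0.05. The fibroblast markers were uneven, with log2 fold changes of -1.08 for Col1a1, -0.95 for Col1a2 and -0.51 for Lum. Pdgfra, at -0.14, and Dcn, at -0.042, were nearer 0. In whole muscle, fewer cells of a type and less RNA per cell cannot be told apart. The part of these cells in the values below was not tested.

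The FOXO factors did not move together. Foxo3, at chr10:42181841-42276755 of GRCm38, is the FOXO gene classically tied to atrophy and autophagy. It had 19.2, 18.3 and 26.0 CPM in the WT mice and 18.2, 15.8 and 15.4 CPM in the LSD1-mKO mice. Each LSD1-mKO mouse was under each WT mouse, but WT replicate 2 and LSD1-mKO replicate 1 were almost level. The means were 21.2 ± 4.24 and 16.4 ± 1.53 CPM (SD, n = 3 each). The log2 fold change was -0.36 (SE 0.16, 95% interval -0.72 to -0.0092), with an edgeR p of 0.0455 that became 0.766 after adjustment over all genes tested. The exact permutation test, two-sided, gave p = 0.1, the smallest that 3 against 3 mice can give. Foxo3 had 159 to 293 estimated counts a library. Left out in turn, single mice moved its log2 fold change from -0.46 to -0.18, the latter without WT replicate 3, the mouse with the most Foxo3.

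Foxo1, at chr3:52268336-52353221, is the FOXO gene that also governs the switch to fat as fuel in fasting. It was read at 160.1, 49.0 and 105 CPM in WT and at 68.3, 56.0 and 104 CPM in LSD1-mKO. WT replicate 1 was highest and WT replicate 2 lowest of all 6 mice, so the LSD1-mKO values all lay inside the WT range. The highest WT mouse had 3.27 times the lowest, and the highest LSD1-mKO mouse 1.85 times the lowest. Its SD within genotype, 0.69 on the log2 scale, was above that of 98.1% of the genes tested. The log2 fold change was -0.46 (SE 0.39, edgeR adjusted p = 0.853), and without WT replicate 1 it was -0.018.

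Foxo4, at chrX:101254528-101260873, is a FOXO gene strongly expressed in muscle. It had 154, 115 and 107 CPM in WT and 129, 157 and 148 CPM in LSD1-mKO. WT replicate 1 lay among the LSD1-mKO mice and the other 2 WT mice lay under them. Its log2 fold change was 0.21 (SE 0.15, edgeR adjusted p = 0.810). Foxo6, the remaining mouse FOXO gene and not one of the 10, was at 11.0 to 14.5 CPM in WT and 13.7 to 17.7 CPM in LSD1-mKO (log2 fold change 0.34, edgeR adjusted p = 0.766).

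**Figure D1:**
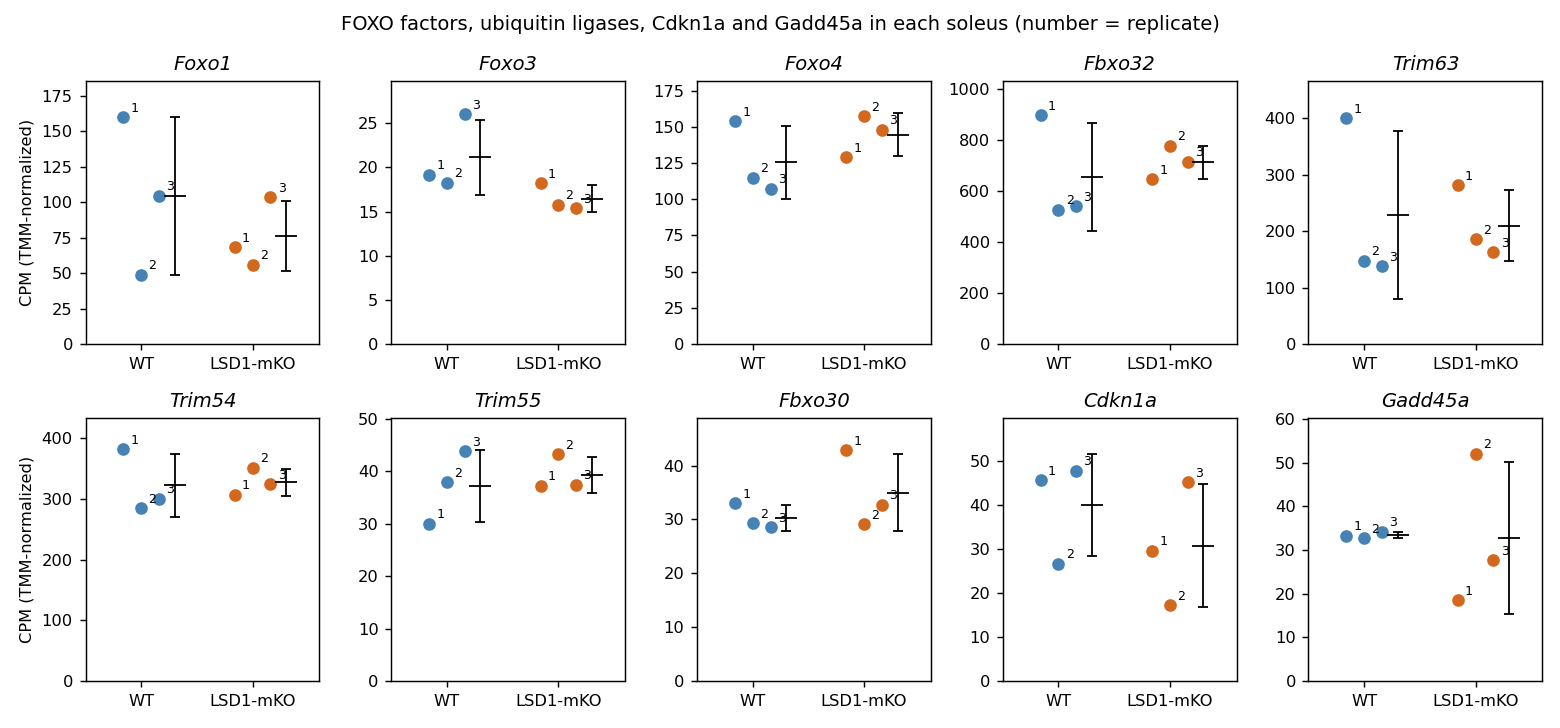
TMM-normalized CPM (vertical axes, linear from 0) of each of the 10 genes in the 3 WT (blue) and 3 LSD1-mKO (orange) mice, numbered by replicate, with the mean and SD of each genotype as a bar in black. WT replicate 1 stands above the other 5 mice for Foxo1, Fbxo32, Trim63 and Trim54, and Foxo3 is the only gene whose groups do not overlap.

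Fbxo32 and Trim63, the ligases most used as readouts of atrophy, had overlapping groups. Fbxo32, at chr15:58175879-58214932, encodes the F-box subunit that picks substrates for an SCF ligase. It had 899, 528 and 541 CPM in WT and 647, 779 and 716 CPM in LSD1-mKO. WT replicate 1 was above every other mouse, while WT replicates 2 and 3 were below every LSD1-mKO mouse. The log2 fold change was 0.12 (SE 0.20, 95% interval -0.34 to 0.59, edgeR adjusted p = 0.930).

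Trim63, at chr4:134315120-134329629, encodes a RING ligase of the sarcomere that targets thick filament proteins. It had 399.9, 147 and 138 CPM in WT and 282, 186 and 162 CPM in LSD1-mKO. The pattern was that of Fbxo32, with WT replicate 1 on top and the other 2 WT mice at the bottom. The highest WT mouse had 2.91 times the lowest, and the SD within genotype of 0.67 on the log2 scale was above that of 97.9% of the genes tested. Its log2 fold change was -0.12 (SE 0.40, 95% interval -1.04 to 0.80, edgeR adjusted p = 0.961). That interval spans a lower level by 1.04 and a higher level by 0.80 on the log2 scale, so differences of either sign remain within it.

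The promoter of Trim63 is shown because, among the members' promoters searched, it was the one that held both a FOXO consensus and a glucocorticoid response element. RefSeq windows of GRCm38.p6, 250 bases before the start site, were found for 7 of the 10 genes. Foxo4, Fbxo32 and Trim55 had no entry. The FOXO consensus GTAAACAA, on either strand, was in 1 of the members' 8 windows and in 1.07% of 32851 windows of the same length. Its core GTAAACA, which every consensus match also holds, was in 3.17% of them. The glucocorticoid response element, searched on both strands as GNACA and TGTNC with any 3 bases between them, was in 0.387%, and both motifs were together in 2 windows, 0.00609%. In Trim63 the motifs adjoin, from 208 to 188 bases before the start (chr4:134314912-134314932, plus strand). In the promoter at chr4:134314870-134315119, plus strand, the capitals mark the response element followed directly by the FOXO consensus, read here on the opposite strand:
Trim63: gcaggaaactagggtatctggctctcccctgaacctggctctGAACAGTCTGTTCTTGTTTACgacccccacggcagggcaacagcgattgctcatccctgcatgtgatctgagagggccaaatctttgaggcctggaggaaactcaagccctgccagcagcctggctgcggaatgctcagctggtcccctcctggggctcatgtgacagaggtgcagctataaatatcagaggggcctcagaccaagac
A match is a description of letters, and binding was not measured in these samples.

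The 2 other MuRF genes were steadier. Trim54 (MuRF3), at chr5:31116712-31137630, encodes a relative of Trim63 that binds microtubules and the sarcomere. It had 382, 284 and 300.1 CPM in WT and 307, 351 and 324 CPM in LSD1-mKO, with WT replicate 1 again the highest. Its log2 fold change was 0.024 (SE 0.13, edgeR adjusted p = 0.977). Trim55 (MuRF2), at chr3:19644474-19692421, encodes a relative that associates with titin. It ran the other way across the WT mice, with 30.0, 37.9 and 43.8 CPM, and had 37.3, 43.3 and 37.4 CPM in LSD1-mKO. WT replicate 1 was its lowest mouse. The log2 fold change was 0.076 (SE 0.14, edgeR adjusted p = 0.934).

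Fbxo30 (MUSA1), at chr10:11281330-11298052, encodes another F-box protein of an SCF ligase, known to be held down by BMP signalling in muscle. It had 33.0, 29.3 and 28.5 CPM in WT and 42.9, 29.1 and 32.8 CPM in LSD1-mKO. LSD1-mKO replicate 1 was above all other mice, and the other 2 LSD1-mKO mice lay within the WT range. The log2 fold change was 0.21 (SE 0.15, edgeR adjusted p = 0.813).

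Cdkn1a, at chr17:29090976-29100727, encodes p21, an inhibitor of cyclin-dependent kinases that p53 and FOXO factors can both induce. It had 45.6, 26.6 and 47.7 CPM in WT and 29.6, 17.2 and 45.1 CPM in LSD1-mKO. Each genotype held mice at both ends of the range. The log2 fold change was -0.39 (SE 0.34, edgeR adjusted p = 0.860), and the SD within genotype was above that of 96.3% of the genes tested. The fold change was -0.77 without LSD1-mKO replicate 3 and -0.093 without LSD1-mKO replicate 2.

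Gadd45a, at chr6:67035096-67037457, encodes a growth arrest and DNA damage protein that rises in denervated or fasted muscle. It was nearly flat in WT, with 33.3, 32.7 and 34.2 CPM. In LSD1-mKO it had 18.5, 52.0 and 27.7 CPM, so that its lowest and highest mice of all were both LSD1-mKO. The highest mouse had 1.05 times the lowest in WT and 2.81 times in LSD1-mKO, and this difference in spread was not tested. The means were almost equal, 33.4 ± 0.768 and 32.7 ± 17.3 CPM (SD, n = 3 each), and the log2 fold change was -0.027 (SE 0.32, edgeR adjusted p = 0.988). Its estimated counts were not whole in any library, 276.46 in WT replicate 1 for example. The transcript E230016M11Rik, at 0.630 to 1.30 CPM, overlaps it on the other strand. Antisense transcripts are also annotated across Foxo1, Fbxo32 and Trim54, and since the library kit was not stated to keep strand, reads of the partners cannot be told apart.

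The Gadd45a promoter is shown with the amplicon of the study's chromatin primers for this gene. The study assayed the histone mark H3K4me3 at this promoter in gastrocnemius muscle of mice given the glucocorticoid dexamethasone. It assayed LSD1 and Foxk1 there in C2C12 myotubes. The stretch lies at chr6:67037458-67037657 of GRCm38.p6, minus strand, and ends where the first annotated exon begins. The RefSeq start of the promoter table lies further downstream, inside that exon. The capitals mark both sites of the primer pair, which bound 107 bases from 242 to 136 bases before that RefSeq start:
Gadd45a: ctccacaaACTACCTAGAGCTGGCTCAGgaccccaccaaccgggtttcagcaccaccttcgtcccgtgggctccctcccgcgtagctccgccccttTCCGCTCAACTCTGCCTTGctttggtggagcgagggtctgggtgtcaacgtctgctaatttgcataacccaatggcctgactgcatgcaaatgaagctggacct
Neither the FOXO core nor the response element was found in the searched window of Gadd45a, which says only that these letters are not there.

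Counted together, 0 of the 10 genes passed an adjusted p of 0.05 by edgeR, against 0.0156% of all genes tested, which was 2 genes, 1 of them Kdm1a. DESeq2 and limma voom also called 0 of the 10. At an unadjusted edgeR p under 0.05, 1 of the 10 was lower, Foxo3, and 0 were higher, against 6.4% of all genes in either direction. DESeq2 and voom gave 0 of 10 at that level. Groups did not overlap for 1 of 10, again Foxo3, against 12.7% of all genes. With libraries scaled by their totals alone, the Foxo3 groups overlapped too, since WT replicate 1 had 17.8 CPM and LSD1-mKO replicate 1 had 18.2 CPM, and 0 of the 10 were without overlap. These shares are at or near those of all genes. Of the 10, 5 were fitted higher and 5 lower in LSD1-mKO, and the median log2 fold change was -0.0013 beside -0.020 for all genes tested.

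WT replicate 1 held the highest value for 4 of the 10 genes, Foxo1, Fbxo32, Trim63 and Trim54, and for 23.4% of all genes tested. It was also the library with the lowest total, had the highest summed level of muscle fiber markers, 118230 CPM against 88190 to 103822 CPM in the other 5 mice, and had the lowest summed fibroblast and immune cell markers. Its TMM factor was also the lowest, 0.929 against 0.978 to 1.07 in the other 5 libraries, which raises all its CPM. With libraries scaled by their totals alone it was still highest for Foxo1, Fbxo32 and Trim63. Its Trim54, at 354 CPM, was then almost level with the 352 CPM of LSD1-mKO replicate 2. The part of scaling, depth or cell makeup in its values was not tested.

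Without WT replicate 1, a setting looked at closely after the values were seen, 4 of the 10 had an unadjusted edgeR p under 0.05, against 14.4% of all genes, and 5 of the 10 did not overlap, against 33.8%. Fbxo32 had a log2 fold change of 0.42 (edgeR adjusted p = 0.193), Foxo4 of 0.38 (0.215), and Trim63 of 0.56 (0.309), each with all 3 LSD1-mKO mice above WT replicates 2 and 3. Foxo3 stayed lower in LSD1-mKO, at -0.43 (edgeR adjusted p = 0.310). Trim54, at 0.17, was the remaining gene without overlap. For Trim63 the direction turned, and for Trim55 it turned from 0.076 to -0.051. None of the 10 passed the adjusted p in that fit either, and with 2 WT mice left the exact test over mice has even fewer splits.

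**Figure D2:**
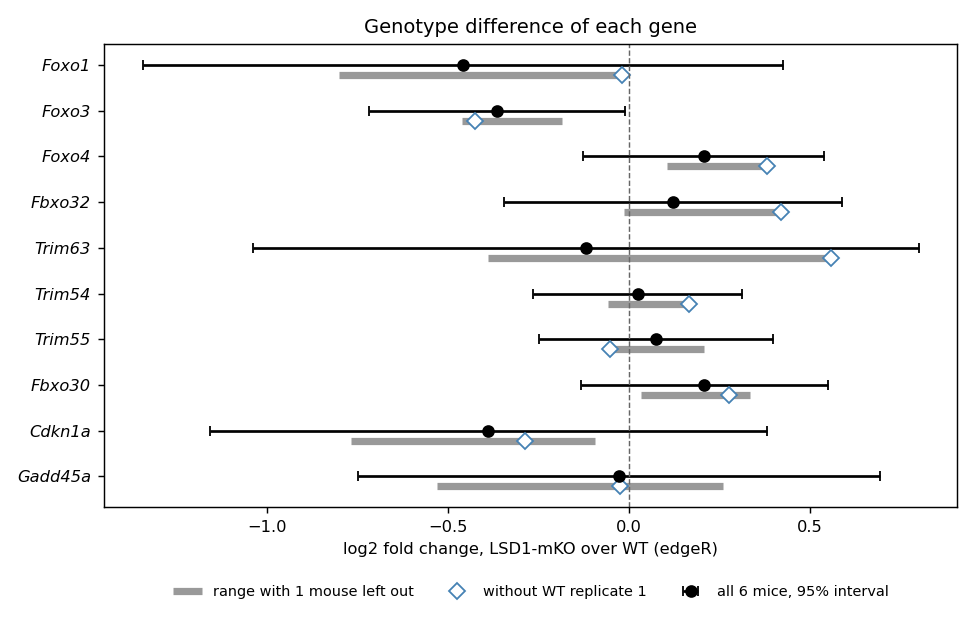
Log2 fold change of LSD1-mKO over WT (horizontal axis, edgeR) for each of the 10 genes with all 6 mice and its 95% interval (black), without WT replicate 1 (open diamonds), and over the 6 fits with 1 mouse left out (grey bars). The black intervals cross 0 for every gene but Foxo3, and the diamond of Trim63 sits at 0.56 while its black point sits at -0.12.

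Per length of transcript, Trim54 and Trim63 had the highest mean levels of the 10 genes. In transcripts per 1000000 (TPM), computed with the longest protein-coding transcript and averaged over 6 mice, Trim54 stood first at 500.3 TPM, followed by Trim63 at 254 and Fbxo32 at 216 TPM. Foxo4 came next at 94.4 TPM, then Gadd45a at 60.0, Cdkn1a at 37.4, Trim55 at 32.8, Foxo1 at 22.8, Fbxo30 at 14.3 and Foxo3 at 6.10 TPM. Neighbours often overlapped, since Trim63 ran from 165 to 434 TPM across mice and Fbxo32 from 175 to 264 TPM. Trim54 stood clear of Fbxo32, with 470 to 544 TPM. With the shortest protein-coding transcript in place of the longest, Trim54 and Trim63 stayed at ranks 1 and 2, Foxo4 came before Fbxo32, and Foxo3 and Foxo1 went to ranks 7 and 10. The length of Foxo3 was then 514 bases in place of 6848.

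Of the summed TPM of Foxo1, Foxo3 and Foxo4, a sum without Foxo6, Foxo4 made up most in every mouse. Its share was 69.6, 81.4 and 68.1% in WT and 79.4, 85.0 and 76.7% in LSD1-mKO. The groups overlapped (exact permutation p = 0.3, 0.6 adjusted over a family of 6 such comparisons). Foxo1 gave 11.0 to 26.4% and Foxo3 3.68 to 7.63%. These shares depend on the transcript length used. The longest Foxo3 transcript has 6848 bases and the shortest 514, while Foxo4 has 3162 and 1345 and Foxo1 has 8665 for both. With the shortest transcripts, Foxo4 held 67.2, 67.5 and 56.0% in WT and 68.9, 75.9 and 72.4% in LSD1-mKO, without overlap (exact p = 0.1, the smallest possible), Foxo3 19.7 to 35.5% and Foxo1 4.20 to 10.9%. Of the TPM of the 5 ligases, Fbxo32 itself among them, Fbxo32 held 20.6, 20.3 and 20.3% in WT. That was an even share in mice with 264, 180 and 175 TPM of Fbxo32. In LSD1-mKO its share was 19.4, 23.4 and 23.6% (exact p = 0.4, 0.6 adjusted). Trim63 held 33.9, 21.0 and 19.1% in WT and 31.2, 20.6 and 19.8% in LSD1-mKO (exact p = 0.8). In each genotype replicate 1 was the mouse with the large Trim63 share, and the numbers are not known to mark a shared origin. The ratio of Trim63 to Fbxo32 TPM was 1.64, 1.03 and 0.941 in WT and 1.61, 0.882 and 0.839 in LSD1-mKO (exact p = 0.5).

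**Figure D3:**
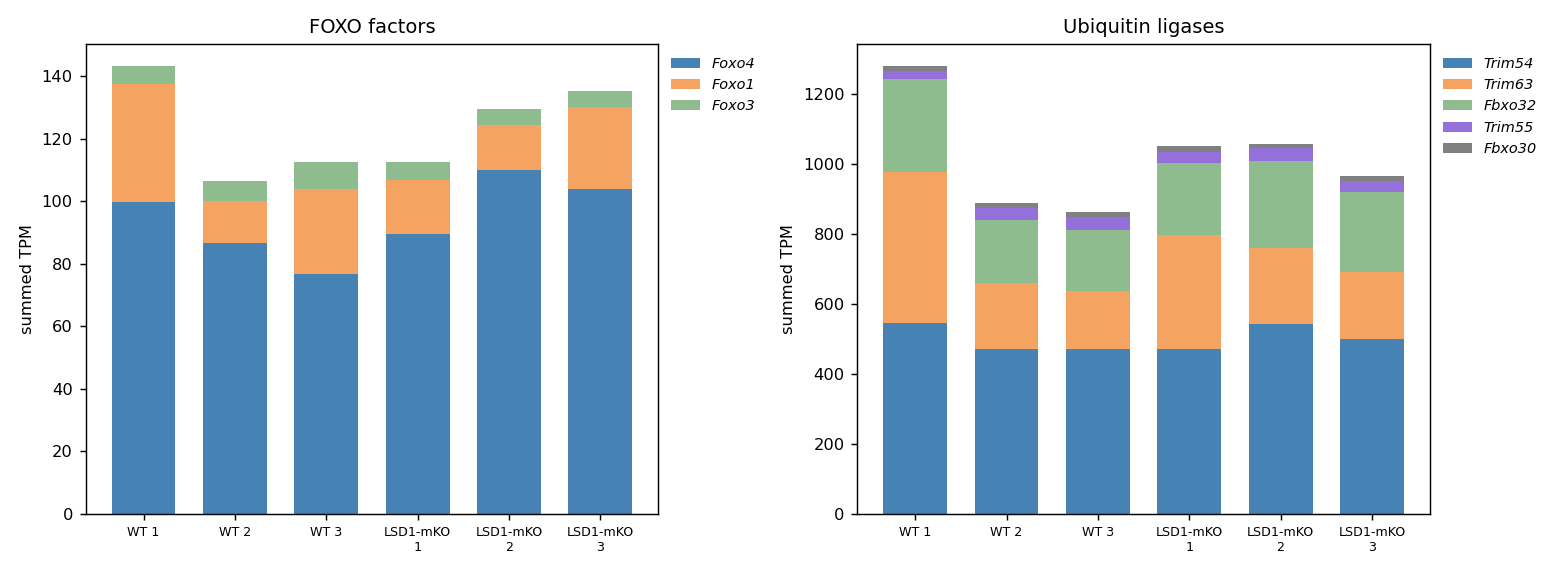
Summed TPM (vertical axes, linear from 0) of the 3 FOXO factors and of the 5 ligases in each mouse, stacked by gene. Foxo4 fills 68.1 to 85.0% of the FOXO bar in each mouse, and the ligase bar is tallest in WT replicate 1, at 1279 TPM.

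Across the 6 mice, 8 relations between these genes were computed on log2 CPM, and none passed after adjustment (lowest adjusted permutation p 0.553 for r and 0.816 for rho). Fbxo32 and Trim63 gave Pearson's r = 0.73 (exact permutation p = 0.110) and Spearman's rho = 0.77 (exact p = 0.103). Without WT replicates 1 and 2, the mice farthest from the median of Fbxo32, r was 0.28. Foxo1 gave r = 0.50 with Fbxo32 (exact p = 0.303; rho = 0.49, exact p = 0.356) and 0.47 with Trim63 (exact p = 0.346; rho = 0.26, exact p = 0.658). Without the same mice those became -0.60 and -0.63, so that they rested on them. With each genotype centred on its own mean, the 8 relations kept their signs, and the lowest adjusted permutation p for r was 0.496.

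Of 17 genes listed as FOXO regulators, 1 was higher and 2 were lower at an unadjusted edgeR p under 0.05. Of all genes tested, 6.4% were under that p in either direction. Of the 17, 0 passed the adjusted p. Irs2, an adaptor of the insulin receptor that FOXO factors can themselves induce, had 83.7, 27.5 and 42.2 CPM in WT and 24.1, 19.2 and 21.5 CPM in LSD1-mKO. The genotypes did not overlap, with WT replicate 1 far on top (log2 fold change -1.23, edgeR adjusted p = 0.578; -0.69 without WT replicate 1). Groups were without overlap for 12.7% of all genes tested. Sgk1, a kinase related to AKT and induced by glucocorticoids, had 399.6, 228 and 258 CPM in WT and 201, 174 and 228 CPM in LSD1-mKO (log2 fold change -0.56, edgeR adjusted p = 0.718). Igf1r, the IGF1 receptor, was the 1 higher gene at an unadjusted p under 0.05, with 28.1, 27.3 and 27.9 CPM in WT and 40.8, 32.9 and 32.2 CPM in LSD1-mKO (log2 fold change 0.35, edgeR adjusted p = 0.646). Ppargc1a, a coactivator that restrains FOXO3 in muscle, had 79.7, 48.2 and 59.0 CPM in WT and 143, 58.3 and 75.5 CPM in LSD1-mKO. Its log2 fold change of 0.57, the largest of the list (edgeR adjusted p = 0.777), was 0.11 without LSD1-mKO replicate 1. The median over the list was 0.048.

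Among 18 further atrophy targets of FOXO factors and the glucocorticoid receptor, 0 were higher and 1 was lower at an unadjusted edgeR p under 0.05. The share over all genes tested was 6.4% in either direction, and the median log2 fold change of the 18 was -0.13. The 1 lower gene was Glul, glutamine synthetase, with 739, 421 and 513 CPM in WT and 328, 410.4 and 398 CPM in LSD1-mKO (log2 fold change -0.56, edgeR adjusted p = 0.701). The list reached from Mt2, a metallothionein, at -0.77 (edgeR adjusted p = 0.840) to Pdk4, the kinase that shuts glucose carbon out of the mitochondrion, at 0.39 (edgeR adjusted p = 0.860). Both ends rested on single mice, since Mt2 was at -0.058 without WT replicate 3 and at -1.43 without LSD1-mKO replicate 3, and Pdk4 at 0.073 without WT replicate 2. Of 14 other muscle ubiquitin ligases, 0 had an unadjusted p under 0.05 in edgeR, and the median was 0.050. They ran from Cblb, a ligase of the insulin pathway, at -0.34 to Asb2, a cullin ligase subunit, at 0.15. Of 12 genes for the SCF core and for ubiquitin, 0 had an unadjusted p under 0.05 in edgeR and the median was -0.0025. The lowest of them was the deubiquitinase Usp19 at -0.094 (edgeR adjusted p = 0.863). Of 14 genes of the p21, GADD45 and p53 group, 0 had an unadjusted p under 0.05 in edgeR and the median was -0.048, from Sesn2 at -0.46 to Gadd45b at 0.61. DESeq2 and voom also gave 0 genes at an unadjusted p under 0.05 in the last 3 lists, and DESeq2 gave 1 higher and 2 lower among the 18 atrophy targets. By adjusted p, edgeR, DESeq2 and voom each called 0 genes of these 5 lists.

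**Figure D4:**
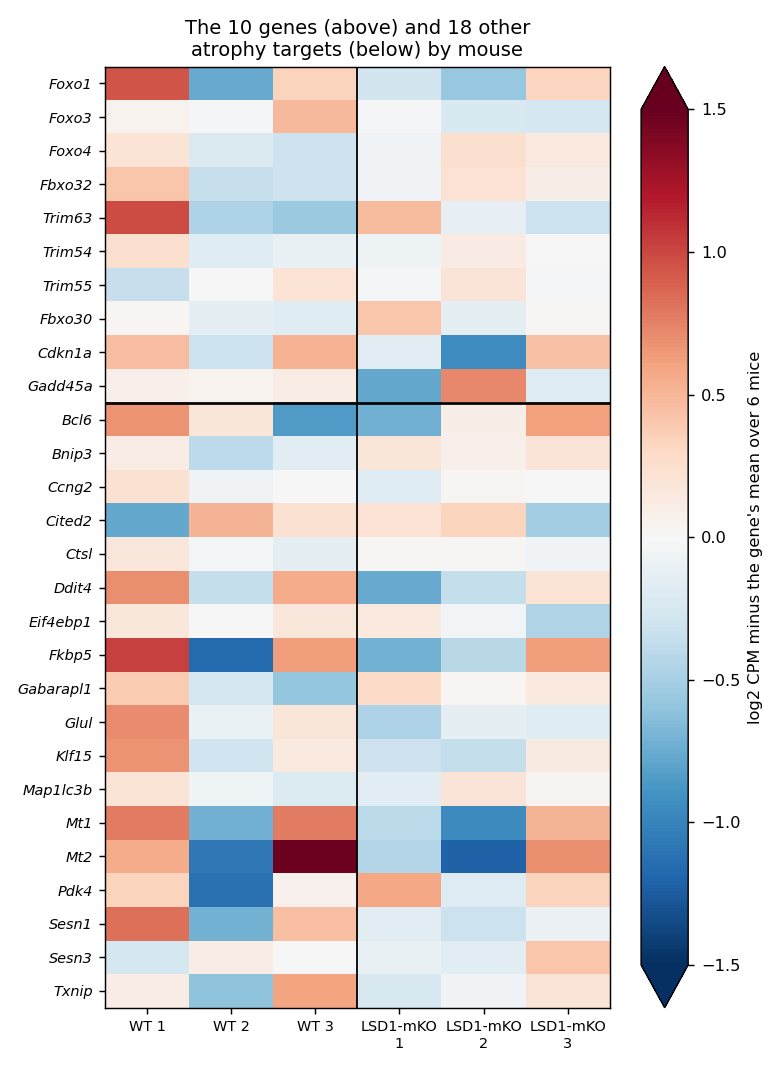
Log2 CPM minus the gene's mean over the 6 mice (colour, red above and blue below, saturating at the ends of the scale) for the 10 genes (above the line) and 18 further atrophy targets (below it), with WT mice on the left and LSD1-mKO mice on the right. WT replicate 1 is red for Foxo1, Fbxo32 and Trim63, and the genotypes are free of overlap for 1 of the 10 genes, Foxo3, and 1 of the 18, Glul.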

How the data were processed

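The authors aligned 75-base single-end reads of poly(A) RNA from Sol muscle with STAR (mm10). The values they deposited are estimated counts for each gene, without normalization. The counting tool and annotation are not given in the sources used here. A deposited DESeq2 comparison of fold changes and p-values was not used. Counts were rounded and fitted with edgeR 4.0.16 in R 4.3.3 (filterByExpr, TMM, quasi-likelihood test by genotype, Benjamini-Hochberg over 12828 genes, threshold 0.05). DESeq2 1.42.0 and limma 3.58.1 (voom) were alternatives, with other scalings and filters, a replicate block and each mouse left out. Exact permutation tests were two-sided. TPM used GENCODE transcript lengths, matched directly for 23350 symbols and through older symbols for 669. On simulated data of 12828 genes, edgeR called 73 of 100 genes changed 2-fold, 99 of 100 changed 4-fold and 10 of the genes left unchanged. The changed genes were drawn at random from all tested, so these rates do not describe genes as variable as Foxo1 or Trim63. Depths of 8940206 to 13798059 counts a library cover counting error only. The members' rule uses symbols and no levels, but the members and gene lists were chosen with earlier results of these data known. Genes named are the members, Kdm1a, and from each pathway list the largest and smallest log2 fold change and those with an adjusted p under 0.05 or, failing that, up to 4 with the smallest unadjusted p under 0.05. Foxo6 and the names of the 5 fibroblast markers were added after their values were seen. A gene that this rule also names is not reported here.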

Additional observations from a re-analysis of the deposited data

How the results depend on the processing

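Under the alternatives, the 10 genes kept their direction in 129 of 140 refits and turned in 11. None passed an adjusted p of 0.05 in any. Trim63 turned under voom (0.0046) and with the replicate block (0.021). Over the 6 refits that drop 1 mouse each, the log2 fold change ran from -0.39 to 0.56 for Trim63, -0.013 to 0.42 for Fbxo32, -0.058 to 0.17 for Trim54, -0.051 to 0.21 for Trim55 and -0.53 to 0.26 for Gadd45a. It ran from -0.80 to -0.018 for Foxo1, 0.11 to 0.38 for Foxo4, 0.034 to 0.33 for Fbxo30 and -0.77 to -0.093 for Cdkn1a, which kept their signs. Outside the 10, Egr3 ran from -0.63 to 0.36 and Dusp4 from -0.035 to 0.57. Leaving out 1 mouse gave 1 to 2 genes of all tested higher and 0 to 1 lower by adjusted p. At an unadjusted edgeR p under 0.05, 0 to 3 of the 10 genes were higher and 0 to 2 lower. Of all genes tested in these fits, 272 to 841 were higher and 222 to 1044 lower at that level. Groups did not overlap for 1 to 5 of the 10. The 5 were without WT replicate 1, against 33.8% of all genes, and 3 were found without WT replicate 2. Among these fits the share of all genes without overlap was computed only without WT replicate 1. DESeq2 called 33 genes higher and 9 lower, voom 2 higher, and edgeR without a filter 8 higher and 3 lower, among them none of the 10. Foxo3 missed an unadjusted p of 0.05 under DESeq2, voom and scaling by library size alone, which left 0 of the 10 lower. Foxo3 also missed that level with the replicate block and without WT replicate 3, LSD1-mKO replicate 2 or LSD1-mKO replicate 3. Under scaling by library size alone 0 of the 10 were without overlap, an alternative added after the data were seen. The cause was not tested. Samples with the same replicate number had correlations of -0.36, -0.097 and -0.15 in their deviations from the group means. These values over all genes showed no likeness by number, but cannot tell whether mice shared a litter or day. With the block 0 genes were lower by adjusted p, Kdm1a having an adjusted p of 0.299, and Cdkn1a was the 1 member with an unadjusted p under 0.05. The block lowered the SE from 0.40 to 0.18 for Trim63, 0.34 to 0.14 for Cdkn1a and 0.39 to 0.27 for Foxo1. It lowered the SE less for Trim55, Fbxo30 and Gadd45a, and raised it for Foxo3, Foxo4, Fbxo32 and Trim54. Whether these genes go together by replicate number was not tested. With 3 mice a genotype, genes with a spread like that of Foxo1 or Trim63 allow only wide intervals.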

Other observations

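The 3 mice with the most Foxo1 were WT replicate 1, WT replicate 3 and LSD1-mKO replicate 3. The same 3 mice led for 7 of the 18 atrophy targets, 38.9%, namely Ddit4, Fkbp5, Klf15, Mt1, Mt2, Sesn1 and Txnip, against 3.61% of all genes tested. Among the 10 members the same was true of Foxo1 itself and of Cdkn1a, and not of Fbxo32 or Trim63. Fkbp5, a glucocorticoid receptor cochaperone and target, had 241, 52.7 and 181 CPM in WT and 72.1, 88.6 and 182 CPM in LSD1-mKO. Sesn1, a sestrin that FOXO factors can induce, had 147, 51.0 and 113 CPM in WT and 74.6, 66.2 and 77.9 CPM in LSD1-mKO. This pattern was noticed in the data and not tested.

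The immediate early genes, which respond within minutes to contraction or stress, were fitted lower in LSD1-mKO for 10 of 10 genes, 4 of them at an unadjusted edgeR p under 0.05, 3 by DESeq2 and 2 by voom. Of all genes tested, 7027 of 12828 were fitted lower and 6.4% had an unadjusted edgeR p under 0.05 in either direction. Btg2, an antiproliferative gene, had 132, 87.0 and 226 CPM in WT and 56.0, 54.1 and 63.2 CPM in LSD1-mKO (edgeR adjusted p = 0.377, DESeq2 adjusted p = 0.000640). Fos had 28.8, 6.03 and 24.6 CPM in WT and 6.07, 2.68 and 6.61 CPM in LSD1-mKO (edgeR adjusted p = 0.578). Jun and Nr4a1 had log2 fold changes of -0.42 and -0.84, and Egr3 was nearest 0 at -0.095. Among 12 clock genes, Arntl, the partner of CLOCK, had 2.77, 4.41 and 3.38 CPM in WT and 9.17, 7.17 and 8.38 CPM in LSD1-mKO (log2 fold change 1.21, edgeR adjusted p = 0.269, DESeq2 adjusted p = 0.00866). Per1 and Per3 had -0.36 and -0.37, at edgeR adjusted p = 0.665 and 0.766. Among 12 denervation genes, Sln, a calcium pump inhibitor, had 334, 307 and 409 CPM in WT and 288, 248 and 216 CPM in LSD1-mKO (edgeR adjusted p = 0.594). Hdac4, which links lost innervation to the gene program of atrophy, had 28.0, 25.4 and 27.6 CPM in WT and 17.2, 24.5 and 20.6 CPM in LSD1-mKO (edgeR adjusted p = 0.701). Myh8 and Dusp4 marked the ends of that list at -1.05 and 0.24.

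Among the markers of other cells not given above, endothelial, adipocyte and Schwann cell lists had 0 of 5 genes at an unadjusted p under 0.05 by edgeR, DESeq2 or voom. The red blood cell list had 1 of 5 by edgeR and 0 of 5 by the other tools. The satellite cell list had 1 of 4 by each tool. By edgeR, 6.4% of all genes tested were at that level. No edgeR adjusted p under 0.05 was found in any list.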
